A study of Sus scrofa with 17 samples.

Results

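The nuclear genes of respiratory complex I were examined in RNA sequencing counts from the right ventricle of 17 pigs (Sus scrofa), all with right ventricular pressure overload. Members were the gene rows named NDUFA, NDUFB, NDUFC, NDUFS or NDUFV plus a number, which gave 32 of the 35670 rows. All 32 had enough counts to be tested, among 15884 genes tested in all. Umbilical cord blood mononuclear cells (UCB-MNC) had been given repeatedly in the multidose group (n = 7) and once in the single dose group (n = 5), and the vehicle control group (n = 5) had received vehicle. Each library is a separate animal by the series text, whereas the labels give no age, sex, weight, batch, dose number or harvest time for a library. The subunit genes NDUFA3, NDUFA12, NDUFB3, NDUFS7 and NDUFV3 were not analysed here.

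Complex I is the entry point of the mitochondrial respiratory chain. It takes electrons from NADH, passes them through a flavin and a row of iron-sulfur clusters to ubiquinone, and uses the energy to pump protons across the inner membrane. Its matrix arm carries the electron path and its membrane arm carries the pumps. Nuclear genes encode the matrix arm core and all accessory subunits, and mitochondrial DNA encodes the membrane core. Heart muscle is rich in mitochondria and depends on this chain for most of its ATP.

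The libraries held 21754800 to 61144663 counts. Multidose 1 to 4 and single dose 1 have library names that start with M1, and the other 12, all 5 vehicle controls included, have names that start with M8 or M9. The labels do not say what these names stand for. The 4 libraries under 25000000 counts all had M1 names. The tissue label was checked with 11 cardiomyocyte markers, whose summed level was 59724 to 85349 CPM (counts scaled to a common library total) in multidose, 61252 to 75313 in single dose and 46842 to 77021 in vehicle control libraries, and none was at 0. Summed skeletal muscle markers and summed adipocyte markers each stayed under 1 CPM in every library.

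The complex I genes varied together from animal to animal. The gap between the highest and the lowest library was 0.91 to 2.30 on the log2 scale per gene, and the mean log2 CPM over the 32 genes had a pooled SD of 0.27 within dosing groups. Their summed share of all counts ran from 0.696% to 0.993% in multidose libraries, from 0.612% to 0.967% in single dose libraries and from 0.511% to 0.792% in vehicle control libraries. In tissue RNA, fewer muscle cells and less RNA per cell cannot be told apart. The first principal component of the 32 genes held 80.5% of their variance, and all 32 genes had loadings of the same sign on it. Vehicle control 3 was the lowest library for 26 genes and single dose 4 the second lowest for 28, while the highest library was multidose 3 for 11 genes, single dose 1 for 7 and multidose 2 for 5.

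**Figure D1:**
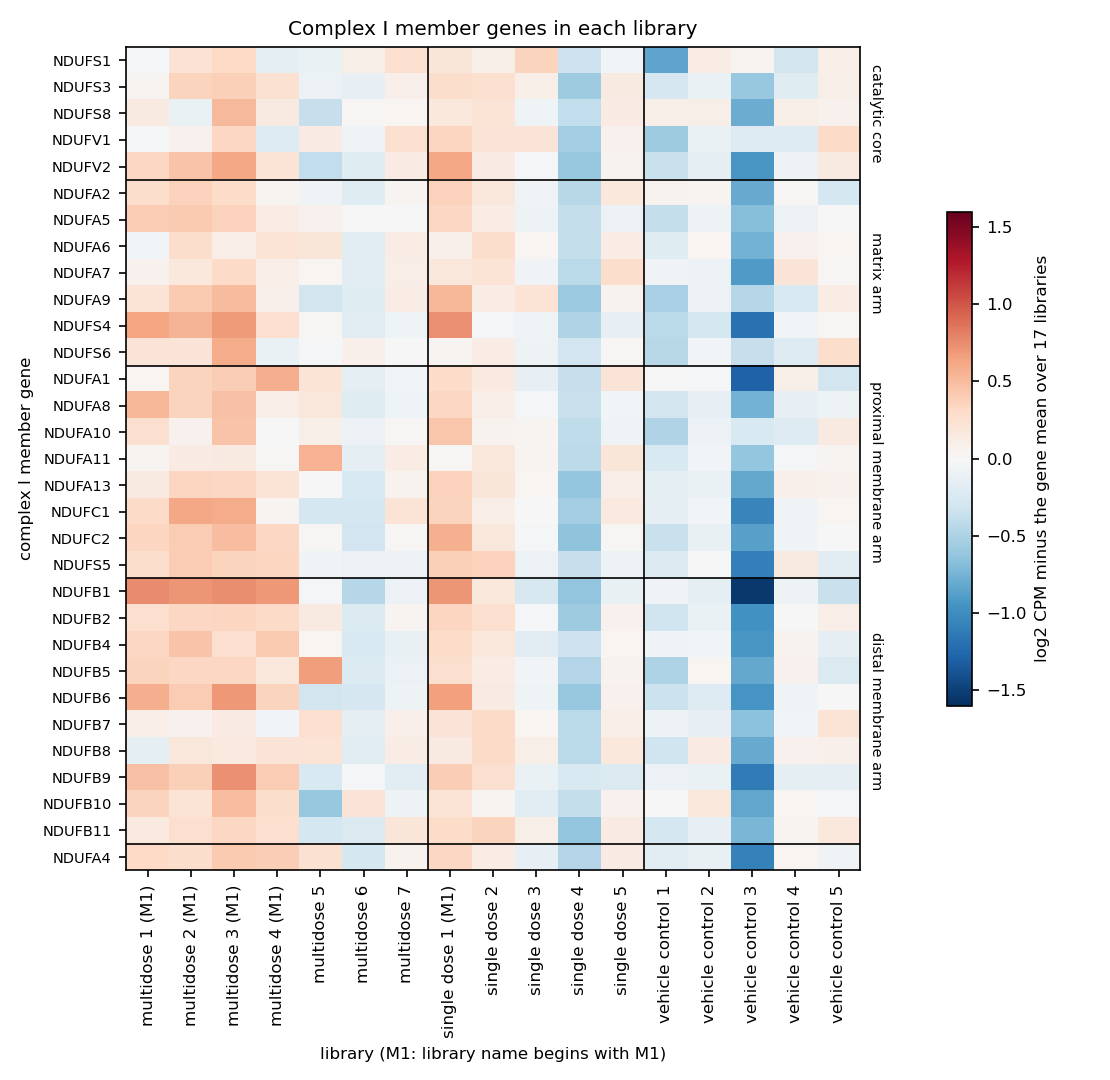
Heatmap of log2 CPM minus the gene's mean over 17 libraries, with 31 of the 32 complex I genes down the side by role and the libraries along the bottom by dosing group, M1 names marked. Vehicle control 3 and single dose 4 are pale or blue for nearly every gene, and multidose 3 and single dose 1, both M1 libraries, are above the mean for all genes drawn.

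The role means stood apart from each other in vehicle controls 3 and 1 but not in single dose 4. In vehicle control 3 the mean deviation from each gene's own average, in log2 CPM, was -0.45 for the catalytic core, -0.74 for matrix arm accessory genes, -0.84 for proximal membrane arm genes and -0.93 for distal membrane arm genes. In vehicle control 1 the order was turned round, with -0.43 for the core and -0.20 for the distal genes. In single dose 4 the means lay close together, at -0.51 for the core, -0.43 for matrix arm accessory genes and -0.47 for both proximal and distal membrane arm genes. Single genes did not follow their role throughout. The core genes NDUFV2, NDUFS3 and NDUFS8 had their lowest library in vehicle control 3, as most accessory genes did. The core genes NDUFS1 and NDUFV1 had theirs in vehicle control 1, and so did the accessory genes NDUFA10 and NDUFS6. NDUFS1, the largest iron-sulfur subunit of the NADH-oxidising module, stood 0.04 above its mean in vehicle control 3 and 0.85 below it (-0.85) in vehicle control 1. NDUFB1, a small single-pass subunit of the distal arm, stood at -1.54 in vehicle control 3 and -0.05 in vehicle control 1. The second component (7.70% of the variance) separated these genes, with large loadings on NDUFS1 (0.45) and NDUFV1 (0.38) at 1 end and on NDUFA1 (-0.28) and NDUFB1 (-0.26) at the other. It did not follow role throughout. The accessory genes NDUFA9 (0.29), NDUFA10 (0.24) and NDUFS6 (0.21) lay toward the NDUFS1 end. The core genes NDUFV2 and NDUFS3 had 0.11 each, and the core gene NDUFS8 had -0.08.

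Other transcripts moved in these libraries too. Vehicle control 3 had the lowest summed level of 53 cytoplasmic ribosomal protein genes (10032 CPM) and of the nuclear subunits of complexes II to V (11239 CPM). Its cardiomyocyte markers summed to 67596 CPM, rank 8 of 17 from the lowest. Its endothelial (1428 CPM) and its smooth muscle and pericyte (1193 CPM) sums each had rank 16. The ranks were 10 for fibroblast, 13 for T and natural killer cell and 3 for macrophage markers. Vehicle control 1 had the lowest cardiomyocyte marker sum (46842 CPM) and the lowest sum of the mitochondrially encoded complex I genes (18407 CPM). It had the highest endothelial (1525 CPM) and T and natural killer cell (46.1 CPM) sums. Single dose 4 had rank 3 from the lowest for the cardiomyocyte and the mitochondrially encoded sums (61252 and 26426 CPM). For complexes II to V it had rank 2 (12193 CPM). The part of cardiomyocyte and other cell content in the complex I levels was not tested.

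Multidose was set against vehicle control to ask whether repeated cell dosing goes with another level of complex I transcripts. Every one of the 32 genes had a higher fitted level in multidose hearts, by 0.13 to 0.75 on the log2 scale with a median of 0.35, yet none passed the test. Over all genes tested the median was -0.01 and 49.3% were above 0. No gene of any kind was called in this comparison (0% of 15884 in either direction), by edgeR's quasi-likelihood test with Benjamini-Hochberg adjustment over all genes. At an unadjusted p under 0.05 stood 13 of the 32 genes, all higher in multidose, against 6.74% of all genes higher at that threshold. DESeq2 and limma-voom called none of the 32 either, and none had multidose and vehicle control libraries without overlap (0.145% of all genes did).

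Among the core subunits the median log2 difference was 0.28, with NDUFV2 highest (0.43, SE 0.22) and NDUFS8 lowest (0.13, SE 0.17). NDUFV2 holds an iron-sulfur cluster of the NADH module and NDUFS8 holds clusters near the ubiquinone site. Between them lay, among others, NDUFV1 (0.21), NDUFS1 (0.23) and NDUFS3 (0.34). The NDUFS1 value was 0.089 without vehicle control 1. Matrix arm accessory genes had a median of 0.28, from 0.22 for NDUFA7 over 0.24 for NDUFA6 and 0.28 for NDUFA2 and NDUFS6 to 0.37 for NDUFA9 and 0.64 for NDUFS4. NDUFA6 belongs with NDUFB9 to the family that binds the acyl carrier protein, and NDUFA2 has a thioredoxin fold.

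Proximal membrane arm genes had a median of 0.40. They ran from 0.28 for NDUFA13, also known as GRIM-19, 0.29 for NDUFA10 and 0.30 for NDUFA11 to 0.39 for NDUFS5, 0.42 for NDUFC1, 0.44 for NDUFA1, 0.46 for NDUFC2 and 0.47 for NDUFA8. Distal membrane arm genes had a median of 0.38 and the widest range, from 0.18 for NDUFB7, 0.21 for NDUFB8, 0.25 for NDUFB10 and 0.27 for NDUFB11 over 0.37 for NDUFB4 and 0.40 for NDUFB2 to 0.52 for NDUFB6, 0.54 for NDUFB9 and 0.75 for NDUFB1. NDUFA1, on the X chromosome in pigs, and most NDUFB genes encode small proteins that cross or line the inner membrane.

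NDUFA4, first counted with complex I and now placed with cytochrome oxidase, ranged from 1045 CPM over a median of 1539.6 to 1705 CPM in multidose hearts. It held 1594, 1385, 1158, 916 and 1391 CPM in single dose libraries 1 to 5, against 1125, 1172, 603, 1305 and 1225 CPM in vehicle controls 1 to 5. The groups overlapped, with vehicle control 3 lowest of all. The log2 fold changes were 0.45 (SE 0.19) for multidose and 0.25 (SE 0.21) for single dose. RefSeq annotates a pseudogene of NDUFA4, so reads may be shared with it.

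NDUFA8 (ENSSSCG00000005528), a proximal membrane arm subunit on the intermembrane space side, had the smallest p of the 32. The gene lies on chromosome 1 from 262243225 to 262258186 of Sscrofa11.1. NDUFA8 stood at 228 CPM in the lowest, 295 in the middle and 378 in the highest multidose library, against 214, 239, 155, 239 and 248 CPM in vehicle controls 1 to 5. All but the lowest of the multidose values lay above every control value. The log2 fold change was 0.47 (SE 0.16, 95% interval 0.14 to 0.81), with an edgeR adjusted p of 0.366.

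NDUFA5 (ENSSSCG00000037869, chromosome 18, 23881872 to 23896699), an accessory subunit of the matrix arm, had the next smallest p. It ranged from 215 CPM over a median of 236 to 289 CPM in multidose hearts, and was at 166, 204, 135, 203 and 217 CPM in vehicle controls 1 to 5. Only vehicle control 5 reached into the multidose range. Its log2 fold change was 0.43 (SE 0.15) with an edgeR adjusted p of 0.366.

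NDUFB5 (ENSSSCG00000011764, chromosome 13, 117656411 to 117671515), a distal membrane arm subunit, ranged from 206 CPM over a median of 300.2 to 381 CPM in multidose hearts. Vehicle controls 1 to 5 had 169, 244, 136, 250.5 and 204 CPM. The groups overlapped, and the highest multidose value belonged to multidose 5, which has no M1 name. The log2 fold change was 0.50 (SE 0.18) with an edgeR adjusted p of 0.367.

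**Figure D2:**
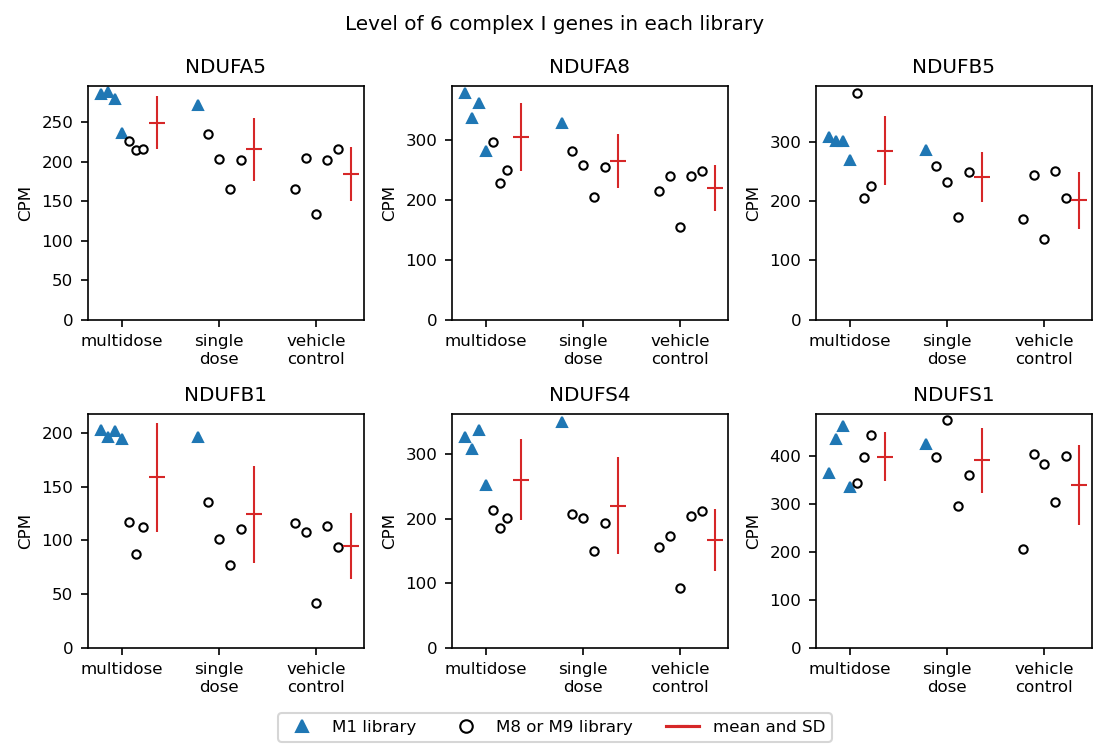
CPM of 6 complex I genes in each library by dosing group, with red bars for the group mean and SD, triangles for M1 libraries and open circles for M8 or M9 libraries. For NDUFB1 and NDUFS4 the triangles stand apart from the circles, and for NDUFS1 they lie among them.

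The multidose difference was smaller where library names or library totals were taken into account. With an M1 term in the model, 30 of the 32 genes were above 0 and 2 below, the median was 0.16, and none had an unadjusted p under 0.05 (50.6% of all genes were above 0). Within the M8 and M9 libraries alone, 3 multidose against 5 vehicle controls, the count was again 30 above and 2 below with a median of 0.15, against 47.7% of all genes above 0. With the M1 term NDUFA8 and NDUFA5 stood at 0.23 each (SE 0.15 for both) and NDUFB5 at 0.39 (SE 0.20). None of the 3 passed in that fit (edgeR adjusted p = 0.999 for each). Without the 4 libraries under 25000000 counts, all with M1 names, all 32 genes stayed above 0 with a median of 0.23 (0.0016 over all genes). That fit was chosen after the data were seen. None of the 32 had an unadjusted p under 0.05 in that fit.

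The difference was also smaller without vehicle control 3. Within M8 and M9 libraries without it, 19 of the 32 genes were above 0 and 13 below. Their median was 0.06, against 0.0013 over all genes. In the fit on all other libraries, the number at an unadjusted p under 0.05 dropped to 5 without vehicle control 3 and 6 without multidose 3. It was 7 without multidose 2, 8 without vehicle control 1, and 9 without multidose 1 or multidose 4. It was higher, at 19, without multidose 6, at 18 without multidose 5, vehicle control 5 or single dose 4, and at 16 without single dose 1. Over all genes, 1997 stood at that threshold in either direction in the main fit. The all-gene number was 1286 without vehicle control 3, 1336 without multidose 3, 1362 without multidose 2 and 1848 without vehicle control 1. It was 1409 without multidose 1, 1718 without multidose 4, 2598 without multidose 6 and 2581 without multidose 5. Without vehicle control 5, single dose 4 or single dose 1 it was 2357, 1976 and 2172. The median of the 32 ran from 0.26 without vehicle control 3 to 0.41 without vehicle control 5. With the name suffix (_R or none) as a covariate, 4 of the 32 stood at that threshold, and 997 of all genes did.

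**Figure D3:**
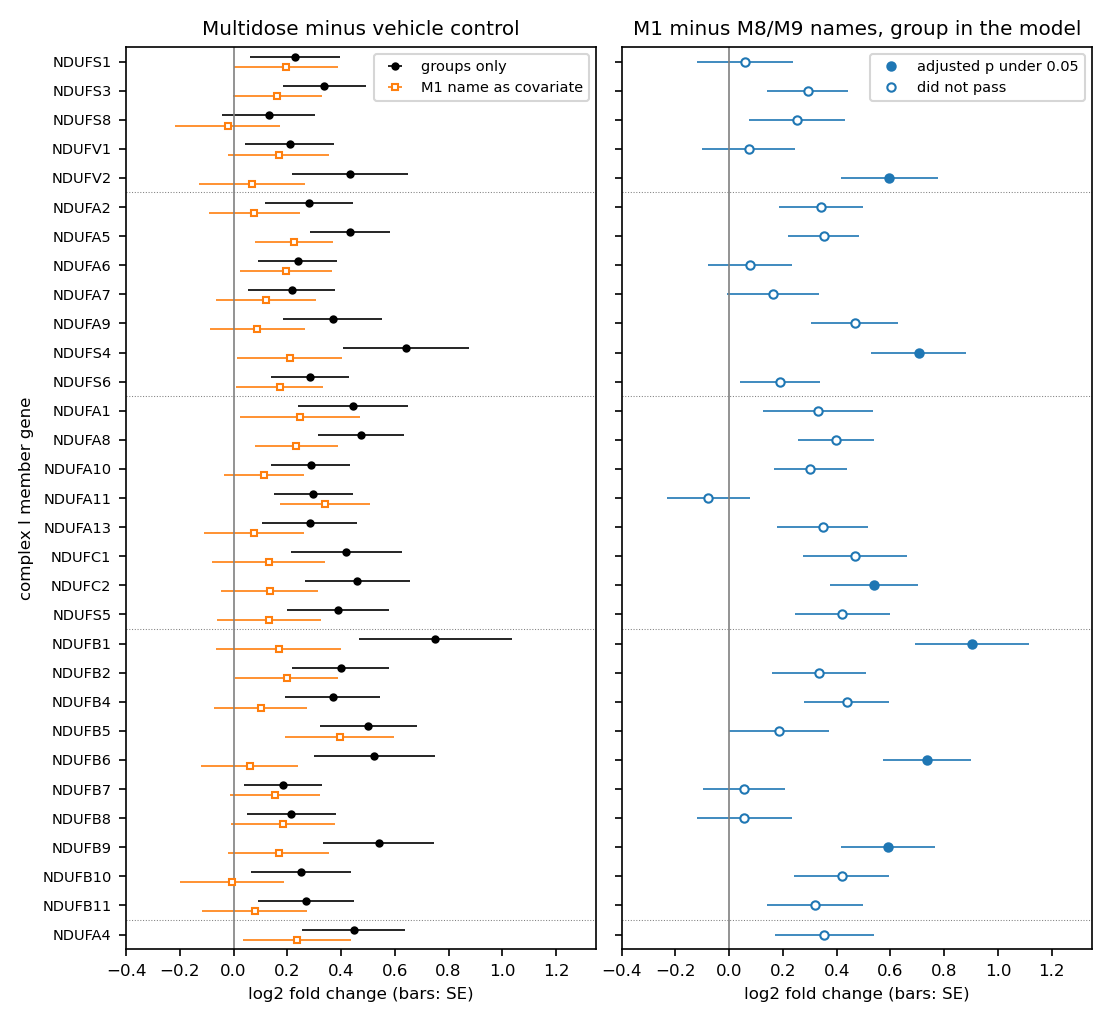
Log2 fold changes with SE for 31 of the 32 complex I genes. Left, multidose minus vehicle control with groups alone (filled circles, all above 0) and with the M1 term (open squares, smaller for most genes). Right, M1 minus M8/M9 names with group in the model, where the 6 filled points passed the test.

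Single dose hearts also had higher fitted levels than vehicle controls for all 32 genes, by 0.06 to 0.40 on the log2 scale, with a median of 0.24. Over all genes the median was 0.0025 and 50.4% were above 0. None of the 32 passed edgeR's test (0% of all genes passed in either direction) and none had an unadjusted p under 0.05, where 2.42% of all genes were higher. DESeq2 and limma-voom called none of the 32, and none had groups without overlap (0.422% of all genes did). This comparison and the previous one share the 5 vehicle controls. NDUFA5 had 0.43 in multidose and 0.22 in single dose hearts, and NDUFB5 had 0.50 in multidose and 0.26 in single dose hearts.

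NDUFA9 (ENSSSCG00000000719, chromosome 5, 65760078 to 65788703), a nucleotide-binding accessory subunit near the ubiquinone site, had the smallest p. Single dose libraries 1 to 5 held 312, 235, 251, 142 and 224 CPM, against 149.6, 202, 157, 181 and 233 CPM in vehicle controls 1 to 5. The lowest single dose library lay below every control. The log2 fold change was 0.34 (SE 0.20, 95% interval -0.08 to 0.75) with an edgeR adjusted p of 0.891, and it was 0.21 without single dose 1.

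NDUFS3 (ENSSSCG00000032081, chromosome 2, 15031147 to 15036880), a core subunit of the ubiquinone module, held 189, 186, 167, 105 and 173 CPM in single dose libraries 1 to 5. It held 130.0, 145, 102, 136 and 166 CPM in vehicle controls 1 to 5. Apart from single dose 4, all single dose values lay above all control values, by a small margin for single dose 3. Its log2 fold change was 0.27 (SE 0.17).

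NDUFS4 (ENSSSCG00000016893, chromosome 16, 32874418 to 32985638), a matrix arm subunit whose loss in humans causes Leigh syndrome, held 350.3, 208, 202, 150.4 and 193 CPM in single dose libraries 1 to 5. Its vehicle controls held 156, 173, 91.7, 204 and 212 CPM. The highest single dose value belonged to the only M1 library of the group. Its log2 fold change was 0.40 (SE 0.25), and 0.17 without that library.

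The single dose median depended on few libraries. It was 0.12 without vehicle control 3 and 0.35 without single dose 4. In the fit without single dose 4, 6 of the 32 genes had an unadjusted p under 0.05. Over all genes, 1063 did in either direction, against 836 in the main fit. Within M8 and M9 libraries the median of the 32 was 0.16, with 31 genes above 0 and 1 below (49.2% of all genes above 0). Without vehicle control 3 as well it was 0.03, with 27 above and 5 below (over all genes the median was -0.00049).

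Multidose hearts had small fitted differences from single dose hearts. Of the 32 genes 31 were above 0 and 1 below, from -0.0036 to 0.36 with a median of 0.12 on the log2 scale, against 50.5% of all genes above 0. None passed edgeR's test (0% of all genes passed in either direction) or had an unadjusted p under 0.05 (0.888% of all genes were higher), and DESeq2 and limma-voom called none. NDUFA5 had 0.21 (95% interval -0.10 to 0.52), NDUFB5 0.25 (-0.13 to 0.62) and NDUFS6 0.19 (-0.12 to 0.49). These intervals leave room for differences of either sign. Without single dose 4 NDUFA5 was at 0.13 and NDUFB5 at 0.15, and without multidose 3 NDUFS6 was at 0.098.

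NDUFS6 (ENSSSCG00000017114, chromosome 16, 78993909 to 79000001) is a zinc-binding subunit of the matrix arm. It ranged from 143 CPM over a median of 162 to 232 CPM in multidose hearts, and single dose libraries 1 to 5 held 159, 167, 146, 125 and 156 CPM. NDUFV1 (ENSSSCG00000012896, chromosome 2, 4958508 to 4964211), which binds NADH and the flavin, was the only gene below 0 (-0.0036, SE 0.16). It ranged from 275 CPM over 333 to 397 CPM in multidose hearts, and single dose libraries held 402, 365, 367, 215 and 332 CPM. Its sign turned with RLE scaling, DESeq2, limma-voom and other alternatives. Without single dose 4 the median of the 32 was 0.01, with 17 genes above 0 and 15 below (0.0044 over all genes). Without multidose 3 it was 0.07, without single dose 1 it was 0.21, and without the 4 libraries under 25000000 counts it was 0.057. With the M1 term it was -0.01, with 12 genes above 0 and 20 below (0.0031 over all genes).

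The library name was the term that some complex I genes passed on. With dosing group kept in the model, 6 of the 32 rose in M1 libraries with none that fell, while 5.92% of all genes rose and 8.06% fell. The 6 were NDUFB6, NDUFB1, NDUFS4, NDUFB9, NDUFC2 and NDUFV2, spread over both arms: 3 distal membrane, 1 proximal membrane, 1 matrix accessory and 1 core gene. Of the 32, 31 were above 0 and 1 below, with a median of 0.34 (48.6% of all genes were above 0, with a median of -0.01), and 15 had an unadjusted p under 0.05, all higher, against 13.5% of all genes. This comparison was made with earlier results of these data known. No vehicle control has an M1 name, and 4 of the 5 M1 libraries have the lowest totals of the series. Multidose 4, the remaining M1 library, had 40969168 counts.

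NDUFB6 (ENSSSCG00000011003, chromosome 10, 33849206 to 33865080), a distal membrane arm subunit, had the smallest p. It held 205, 182, 222 and 176 CPM in multidose 1 to 4 and 216 CPM in single dose 1, the M1 libraries, against 71.2 CPM in the lowest, 124 in the median and 149.8 in the highest M8 or M9 library. All 5 M1 values lay above all 12 others. The log2 fold change was 0.74 (SE 0.16, adjusted p = 0.00927).

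NDUFB1 (ENSSSCG00000002449, chromosome 7, 113652772 to 113659937) had the largest difference of the 32. The M1 libraries held 203, 196, 202 and 194 CPM in multidose 1 to 4 and 196 CPM in single dose 1, with an SD of 4.0 CPM (n = 5). The M8 and M9 libraries ran from 41.2 CPM over a median of 109 to 136 CPM. The log2 fold change was 0.90 (SE 0.21, adjusted p = 0.0120).

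NDUFS4 held 327, 308, 339 and 253 CPM in multidose 1 to 4 and 350.3 CPM in single dose 1, against 91.7 to 214 CPM with a median of 197 in M8 and M9 libraries. The 2 sets did not overlap, and the log2 fold change was 0.70 (SE 0.18, adjusted p = 0.0163). NDUFB9 (ENSSSCG00000005976, chromosome 4, 15105305 to 15113281), a distal subunit that binds the mitochondrial acyl carrier protein, held 503, 471, 601 and 481 CPM in multidose 1 to 4 and 478 CPM in single dose 1. The other libraries ran from 167 CPM over 326 to 431 CPM, with a fitted log2 difference of 0.59 (SE 0.17, adjusted p = 0.0318).

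NDUFC2 (ENSSSCG00000039494, chromosome 9, 12486488 to 12492507), a proximal membrane arm subunit, held 206, 215, 228 and 203 CPM in multidose 1 to 4 and 240.4 CPM in single dose 1. Its M8 and M9 libraries ran from 88.1 CPM over 156 to 183 CPM, with a fitted log2 difference of 0.54 (SE 0.16, adjusted p = 0.0361). NDUFV2 (ENSSSCG00000038826, chromosome 6, 98819156 to 98852561) held 316, 343, 385 and 293 CPM in multidose 1 to 4 and 386 CPM in single dose 1. The M8 and M9 libraries ran from 132 CPM over 233 to 277 CPM, and the log2 fold change was 0.60 (SE 0.18, adjusted p = 0.0367). Neither gene had overlapping sets.

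In all, 11 of the 32 genes had every M1 library above every M8 or M9 library, against 2.73% of all genes: these 6 and NDUFA4, NDUFA5, NDUFB2, NDUFB4 and NDUFB10. NDUFA11 (ENSSSCG00000027307, chromosome 2, 73131029 to 73137921), a multi-pass subunit of the membrane arm, was the only gene below 0. It held 214, 229, 231 and 211 CPM in multidose 1 to 4 and 211 CPM in single dose 1, against 136 to 305 CPM with a median of 209.7 in M8 and M9 libraries. The M1 values lay inside the range of the others (log2 fold change -0.08, SE 0.16, adjusted p = 0.773).

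NDUFS1 (ENSSSCG00000016127, chromosome 15, 109413726 to 109451813), named here after its values were seen, was another gene with no separation. It held 364, 436, 463 and 335 CPM in multidose 1 to 4 and 424 CPM in single dose 1, against 206 to 474 CPM with a median of 389.6 in M8 and M9 libraries (log2 fold change 0.06, SE 0.18, adjusted p = 0.852). The core gene NDUFV1 had 0.07 (SE 0.17), the distal genes NDUFB7 and NDUFB8 had 0.06 each (SE 0.15 and 0.18), and none of these passed. Whether these genes differ from the 6 that rose was not tested.

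Within the multidose group alone, 4 M1 libraries against 3 others, NDUFB1 (0.93, SE 0.14), NDUFB6 (0.74, SE 0.14), NDUFB9 (0.66, SE 0.15) and NDUFS4 (0.62, SE 0.15) passed, against 2.41% of genes that rose in that fit. Here 14 of the 32 genes had M1 values above all others, against 10% of all genes. Without single dose 1, the only M1 library outside that group, none of the 32 passed in the fit on all other libraries, though the 6 genes kept log2 differences of 0.49 (NDUFC2) to 0.92 (NDUFB1), with edgeR adjusted p from 0.0510 for NDUFB6 to 0.164 for NDUFC2. The count was 3 without multidose 1, 3, 5 or 6, with NDUFB6, NDUFB1 and NDUFS4 passing each time, and 13 without vehicle control 3. Over all genes 2220 passed in either direction in the main fit. The all-gene number was 1518, 1571, 1450 and 1247 without multidose 1, 3, 5 and 6. It was 2745 without vehicle control 3 and 858 without single dose 1. DESeq2 called 10 of the 32 (3003 of all genes) and limma-voom 6 (1810 of all genes).

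Ribosomal protein transcripts moved with the library name as well, from 28641 to 37786 CPM in M1 libraries against 10032 to 24041 CPM in the others, and 38 of the 52 tested rose. Of all genes 5.92% rose and 8.06% fell, the shares to set beside this count and the marker counts below. The summed cardiomyocyte markers ran from 66014 to 85349 CPM in M1 and from 46842 to 83392 CPM in the other libraries. Of 11 cardiomyocyte markers none rose and 1 fell, NPPA, with a log2 fold change of -3.86 (SE 0.62, edgeR adjusted p = 0.00223). Of 8 fibroblast markers 3 rose, and 2 of the 6 markers of T and natural killer cells fell. The sum of these 6 was 10.1 to 17.2 CPM in M1 against 15.9 to 46.1 CPM in other libraries. Among 7 endothelial markers 1 rose (TEK), among 6 smooth muscle and pericyte markers 1 fell (CNN1), and no macrophage marker passed. The part of cell content, depth and of what the names stand for in the complex I values was not tested.

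Other parts of the respiratory chain also had positive medians against vehicle control. The mitochondrially encoded complex I genes ND1 to ND6 and ND4L had a median log2 difference of 0.39 in multidose and 0.36 in single dose hearts, with all 7 above 0 in both and none passing. For the nuclear subunits of complexes II to V, 32 of the 39 listed were tested, and their medians were 0.33 and 0.28, with all 32 above 0 and none passing. In M1 libraries 4 of these 32 rose and none fell, led by COX7A1, a cytochrome oxidase subunit (1.13, SE 0.19, adjusted p = 0.00305), and ATP5MC2, an ATP synthase subunit (0.57, SE 0.16, adjusted p = 0.0267). Of all genes 5.92% rose in M1 libraries and 8.06% fell. None of the 7 mitochondrially encoded genes passed there (median 0.22).

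Genes outside the respiratory chain were off 0 in the dosing comparisons as well. All 52 ribosomal protein genes tested were above 0 in multidose against vehicle control, with a median of 0.48 and 18 at an unadjusted p under 0.05, and 51 of 52 in single dose against vehicle control, with a median of 0.26. Over all genes 49.3% were above 0 in multidose and 50.4% in single dose, and 6.74% were higher in multidose at that threshold. Of 11 cardiomyocyte markers 9 were above 0 in both, with medians of 0.38 for multidose and 0.21 for single dose. Of 8 fibroblast markers 7 were above 0 in both (medians 0.27 and 0.14), and 4 of 6 macrophage markers were below 0 in both. Endothelial markers were below 0 for 5 of 7 in multidose (median -0.20) and all 7 in single dose (median -0.23). Smooth muscle and pericyte markers were below 0 for all 6 in multidose (median -0.25) and 4 of 6 in single dose (median -0.07). All 6 markers of T and natural killer cells were below 0 in multidose against vehicle control, with a median of -0.74 and 3 at an unadjusted p under 0.05, and 5 of 6 in single dose, with a median of -0.31. Over all genes 926 of 15884 were lower in multidose at that threshold. None of the ribosomal protein genes or cell markers passed edgeR's test in either comparison. Their part in the complex I differences was not tested.

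Genes that build or regulate the complex were listed separately. Of 18 assembly factors tested, the median was 0.16 in both multidose and single dose against vehicle control and none passed. In multidose hearts 6 of the 18 had an unadjusted p under 0.05, all higher, led by NDUFAF2 (0.58, SE 0.22) and DMAC1 (0.56, SE 0.21). Of all genes 6.74% were higher at that threshold, and by library name 5.92% rose. In M1 libraries DMAC1, which helps assemble the distal membrane arm, rose by 0.68 (SE 0.15, adjusted p = 0.0102) and the other 17 did not pass. Of 11 regulators of mitochondrial biogenesis the medians were -0.04 in both, none passed, and TFAM, which packages and transcribes mitochondrial DNA, rose in M1 libraries (0.47, SE 0.15, adjusted p = 0.0439). NDUFAB1, the acyl carrier protein held in complex I, had 0.23 in multidose and 0.20 in single dose against vehicle control and did not pass.

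**Figure D4:**
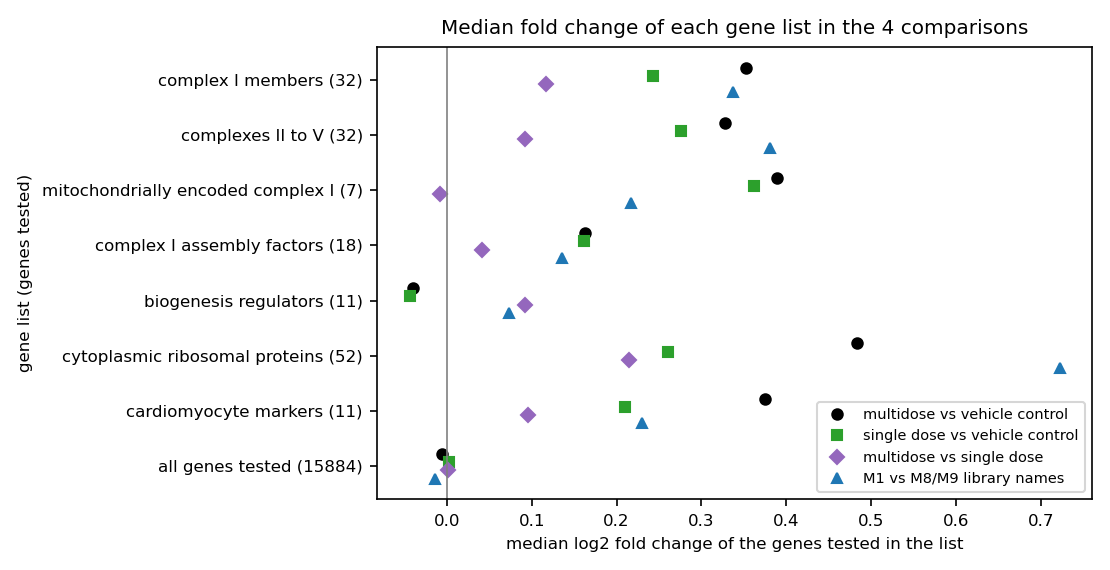
Median log2 fold change of the genes tested in each list for the 4 comparisons, with the number of genes tested beside each list name. The complex I members lie at 0.35 for multidose against vehicle control, and ribosomal proteins reach 0.72 for M1 against M8/M9 names.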

How the data were processed

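RNA from right ventricular tissue was sequenced on an Illumina NextSeq, per the labels' protocols. The authors deposited whole-number read counts per gene. Per the submitters' processing notes, the tools were HISAT2 2.1.0, Subread 1.6.2, Trimmomatic 0.33, FastQC 0.11.7 and SAMtools 1.7 and the build was Sscrofa11.1. Neither strand setting nor annotation release was given in the sources used here. Counts were filtered with filterByExpr, TMM-scaled and fitted over all 17 libraries with edgeR 4.0.16 in R 4.3.3 (robust quasi-likelihood, 1 coefficient per dosing group, two-sided tests, Benjamini-Hochberg adjustment over 15884 genes, threshold 0.05). The M1 comparison adds an M1 term. CPM uses TMM-scaled totals, and log2 CPM has a prior count of 2. CPM is not per length, so levels were not compared between genes. Positions are RefSeq's, matched by symbol. Scripts were tested on simulated data. Members, lists and comparisons were chosen with earlier results of these data known. Named are the 3 members with the smallest p per direction and comparison, those that passed, and NDUFS1. Alternatives were DESeq2 1.42.0, limma-voom (limma 3.58.1), other scalings, filters, covariates and left-out libraries. For 1 member no values of its own are reported here, though it counts among the 32. Motifs in promoters were not examined here.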

Additional observations from a re-analysis of the deposited data

Results flagged for a closer look

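Of 45 combinations of 15 named genes and 3 dosing groups, 5 held a library far from the rest of its group. Chance gives about 1 in 20 for independent combinations. These genes varied together and were named from these same data, so that rate cannot be set against the 5. In vehicle control 3, NDUFB1 was at 41.2 CPM (nearest control 94.0) and NDUFB9 at 167 CPM (nearest 326). In single dose 4, NDUFA11 was at 155 CPM (nearest 211) and NDUFS3 at 105 CPM (nearest 167). In multidose 5, NDUFA11 was at 305 CPM (nearest 231), the highest of all 17 libraries.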

How the results depend on the processing

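No member passed in any dosing comparison under any alternative run. In M1 against M8/M9 names the 6 members that rose became 10 in DESeq2 (3003 genes in all, against 2220). They became 18 without a group term (3783 genes) and 0 to 13 when 1 library was left out (858 to 2745 genes). Within multidose libraries 712 genes passed. The replicate numbers were not taken to pair the animals. Over 15 pairs with the same number the correlations of deviations ran from -0.22 to 0.41, and 4 were above 0.1. The highest was multidose 1 with single dose 1, both M1 libraries. Pairs with different numbers were not examined, so these values cannot settle whether animals were paired. With the replicate block 0 members and 11 genes passed by library name, and 1 gene for multidose against vehicle control. DESeq2 called 1 gene for multidose and 10 for single dose against vehicle control. Leaving out 1 library gave 0 to 1 genes for single dose against vehicle control and for multidose against single dose. The multidose median of members was 0.057 in M8 and M9 libraries without vehicle control 3, and the cause was not tested. This alternative and the one without the 4 libraries under 25000000 counts were chosen after seeing the data. Some values near 0 changed sign. NDUFV1, multidose against single dose, was 0.0014 with RLE scaling, 0.0015 in DESeq2, 0.0094 in limma-voom, 0.00024 with only these 2 groups, 0.095 in M8 and M9 libraries, 0.097 in these without vehicle control 3, 0.027 without the 4 libraries under 25000000 counts, and -0.13 to 0.072 with 1 library left out. By library name NDUFS1 was -0.017 with the name suffix as covariate, and NDUFA11 was 0.076 without a group term and -0.16 to 0.063 with 1 library left out.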

Other observations

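NDUFA4L2, a paralog of NDUFA4 known in humans and mice to be induced by hypoxia, lay outside the naming pattern of the members. It ran from 15.2 CPM over a median of 21.7 to 37.9 CPM in multidose hearts, against 31.0, 19.5, 36.7, 12.4 and 24.99 CPM in vehicle controls 1 to 5, and single dose libraries 1 to 5 held 21.5, 36.3, 30.9, 19.0 and 29.2 CPM. In vehicle control 3, the lowest library for most complex I genes, NDUFA4L2 was the highest control value. In single dose 4, the second lowest library for most of them, NDUFA4L2 was the lowest single dose value (19.0 CPM). NDUFA4L2 had its highest value of all libraries (37.9 CPM) in multidose 4, an M1 library. Its log2 fold changes were -0.03 (SE 0.26) for multidose and 0.14 (SE 0.28) for single dose against vehicle control and -0.16 (SE 0.29) for M1 against M8/M9 names, none of which passed edgeR's test.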
